A study of Homo sapiens with 18 samples.

Results

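Regions of open chromatin that were called in every empty-vector library of a neuroblastoma line, and in no library of that line carrying a hairpin against AHR, are described here. Members were chosen by the measured −log10 p of each peak: every list was ordered by it on the 22 autosomes and cut to a length fixed per line, that of the line's shortest list when chromosome X is counted too. The 9 cut lists of a line were then merged where peaks shared at least 1 bp. A merged region was taken as lost when it held a peak in 3 of 3 empty-vector libraries and in 0 of 6 hairpin libraries. The rule kept 94 of 16622 merged regions in Kelly (0.566%) and 446 of 41611 in BE2C (1.07%). Joined over the lines these made 538 of 43418 regions, since 2 regions were lost in both. The opposite rule, absent from 3 of 3 empty-vector libraries and present in 6 of 6 hairpin libraries, kept 37 regions in Kelly (0.223%) and 177 in BE2C (0.425%). The 2 rules differ in how many libraries must agree on a peak, so the counts of lost and gained regions are not a measure of direction. Because the rule used these very contrasts, the values of the lost regions in their own line are a description, with no test.

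The assay was ATAC-seq, which reads out where the Tn5 transposase can reach DNA in nuclei. The series, per its title, concerns AhR and dedifferentiation in neuroblastoma with amplified MYCN, and it holds 18 libraries in 6 groups of 3. Kelly and BE2C are established human neuroblastoma cell lines with MYCN amplification, and BE2C is a clonal derivative of SK-N-BE(2). The groups of each line were pLKO (lentivirus with the empty vector), shAhR-1 and shAhR-2 (the same vector with 1 of 2 different short hairpin RNAs against AHR), all grown in the same supplemented RPMI medium. The labels call the samples triplicates without saying whether they were separate transductions, so the spread between them may be technical. The AHR transcript was not analysed here, and no gene annotation of the hg19 build was used, so the regions are given by position, without gene names or a check of the lines against marker genes.

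AHR is a transcription factor of the bHLH-PAS family that waits in the cytoplasm with chaperones until it binds a ligand, which can be a pollutant such as dioxin or a product of tryptophan metabolism. It then moves to the nucleus, pairs with ARNT and binds xenobiotic response elements near targets such as CYP1A1. An ATAC-seq peak marks a stretch where nucleosomes are displaced, usually a promoter or an enhancer held open by bound factors. In bulk cells a lower peak can come from fewer cells with an open site or from a less open site in each cell, and these cannot be told apart.

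The libraries differed in depth along the groups. Full autosomal lists held between 8967 and 79435 peaks, and the background level of each library, which follows from its peak values and grows with sequencing, lay between 0.601 and 4.42 reads per position. It was between 2.56 and 2.91 in Kelly shAhR-2 and between 3.40 and 4.42 in BE2C shAhR-2, above every other library. Kelly shAhR-1 replicate 1 stood apart, with a background of 0.601 and the shortest list, and BE2C shAhR-1 replicate 3 had the shortest list of its line, 24894 peaks. Neither of those lists was long enough to be cut, and BE2C shAhR-1 replicate 2 gave up only 648 peaks. The part of depth in the results below was not tested except where a value is given.

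The lost regions lie at the low end of agreement between pLKO and hairpin libraries. In Kelly, 7032 regions had a peak in 3 of 3 pLKO libraries, and 4007 of them had a peak in all 6 hairpin libraries, while 94 (1.34%) had none. In BE2C the same count was 20180, with 14874 found in all 6 hairpin libraries and 446 (2.21%) in none. The class with none was the smallest in Kelly, where 139 regions were held by 1 hairpin library. In BE2C it was not the smallest, since 409 regions were held by 1 hairpin library and 538 by 2. Where a single hairpin library still held the region, it was mostly a shAhR-1 library, in 106 of 139 such regions in Kelly and in 323 of 409 in BE2C. That left 33 and 86 regions held only by a shAhR-2 library.

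**Figure D1:**
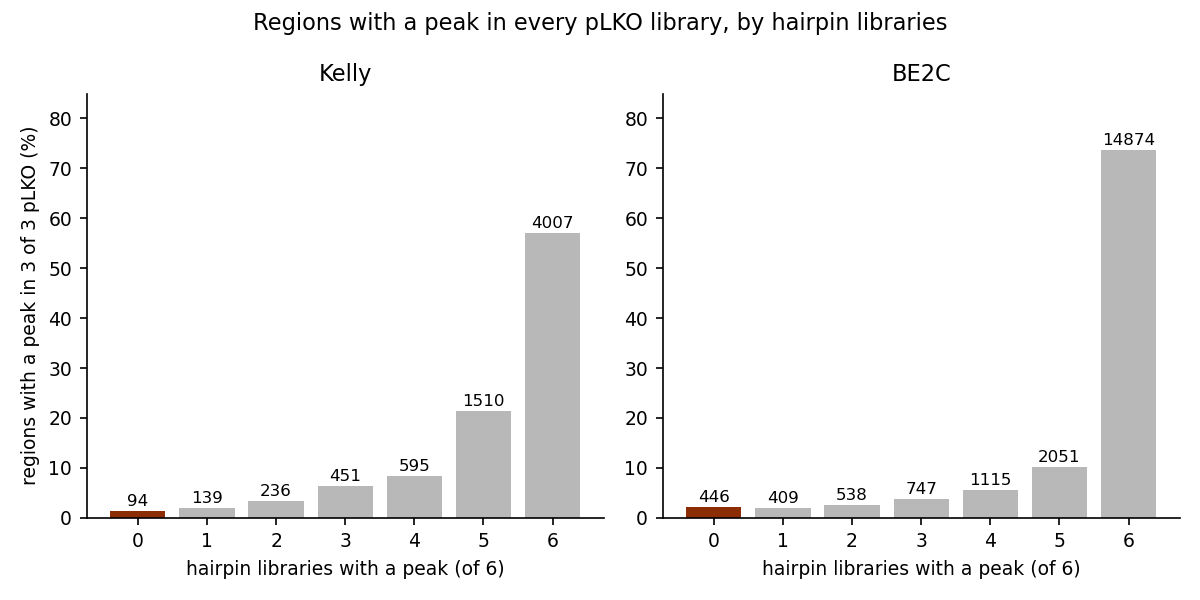
Bars show the percentage of regions with a peak in 3 of 3 pLKO libraries (vertical axis) by the number of the 6 hairpin libraries that also had a peak (horizontal axis), with the number of regions above each bar. The lost regions are the red bars at 0, with 94 regions in Kelly and 446 in BE2C.

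Membership depended on the cut, most of all in Kelly. With peaks ranked by fold in place of −log10 p, 27 of the 94 Kelly and 220 of the 446 BE2C members were lost again, and no region was lost in both lines. With Kelly shAhR-1 replicate 1 left out and the Kelly lists cut at the next shortest, 265 Kelly regions met the rule and 4 of them were members. The values at the edge of the rule show how close some members came to being kept. Just inside it in Kelly was chr22:41214884-41215668, whose weakest pLKO peak ranked 9201, within a few places of the last peak kept. Its fold enrichment over local background, the caller's value at the summit, was 9.50, 6.84 and 9.55 in the pLKO libraries. It was 5.45 and 4.96 in the 2 shAhR-1 libraries with a peak and 9.48, 7.92 and 9.57 in the shAhR-2 libraries, so the pLKO and shAhR-2 folds of this member overlapped. Just outside was chr4:184826326-184828202, with pLKO folds of 8.78, 6.40 and 9.80, kept by a peak of 7.27 at rank 9028 in Kelly shAhR-2 replicate 1. In BE2C the member nearest the edge was chr11:74916092-74916768, at rank 25656, and chr18:57223477-57224347 fell just outside through a peak at rank 25655 in shAhR-1 replicate 1.

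The full lists, before any cut, show what became of the lost regions. In most cases a peak was still called below the cut. Of the 94 Kelly regions, 85 and 89 had a peak in the full lists of shAhR-1 replicates 2 and 3, and 89, 82 and 88 had one in shAhR-2 replicates 1 to 3. None had one in shAhR-1 replicate 1, which follows from the rule because that list was not cut. Every Kelly region had a full-list peak in at least 1 hairpin library, and 73 (77.7%) had one in 5. These peaks were not always weaker in fold or -log10 p. At chr18:47013319-47013875, folds were 12.8, 6.51 and 11.2 in pLKO and 11.0 and 12.1 in shAhR-2 replicates 1 and 3. The -log10 p of 43.5 and 42.3 in these shAhR-2 libraries was above the 37.7, 12.5 and 25.1 of pLKO, but it grows with depth. Divided by each library's background, the reads at the summit were 19.6 and 19.9 in these shAhR-2 libraries. In pLKO they were 23.7, 9.38 and 21.5, so pLKO replicates 1 and 3 were higher. Among the 446 BE2C regions, 369, 355 and 360 had a peak in the full lists of shAhR-2, and 265, 16 and 0 in those of shAhR-1. The 0 of shAhR-1 replicate 3 follows from the rule, because that list was not cut. In shAhR-1 replicate 2 only 648 peaks lay below the cut, so few could be found there. No hairpin peak of any strength was called at 36 BE2C regions (8.07%). A missing peak means that none passed the caller, and depth limits what could pass.

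The lost regions were weaker than their peers already in empty-vector cells, which the rule favours. A pLKO peak ranked near the cut needs only a small drop to leave a list. In pLKO replicates 1 to 3, median ranks at the Kelly members were 7265, 6725.5 and 6500. At the other regions with 3 of 3 pLKO peaks they were 3496.5, 3819 and 3520.5. In BE2C they were 19079, 19004 and 19559, against 10019.5, 9998.5 and 9912.5. Whether the sites are weaker apart from the rule was not tested. Median folds at the Kelly members were 9.75, 6.18 and 9.68 in pLKO replicates 1 to 3, and the other regions with 3 of 3 pLKO peaks had 11.4, 7.28 and 11.4. At the BE2C members the medians were 5.12, 5.66 and 6.65, against 7.65, 8.56 and 9.36. Where the hairpin full lists held a peak at the Kelly members, median folds were 5.33 and 5.15 in shAhR-1 and 6.30, 5.51 and 6.63 in shAhR-2. At the BE2C members they were 4.58 and 3.20 in shAhR-1 and 4.58, 4.38 and 4.06 in shAhR-2. In Kelly the medians overlapped, since pLKO replicate 2 was low and 2 shAhR-2 libraries were above it. In BE2C every pLKO median was above every hairpin median.

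**Figure D2:**
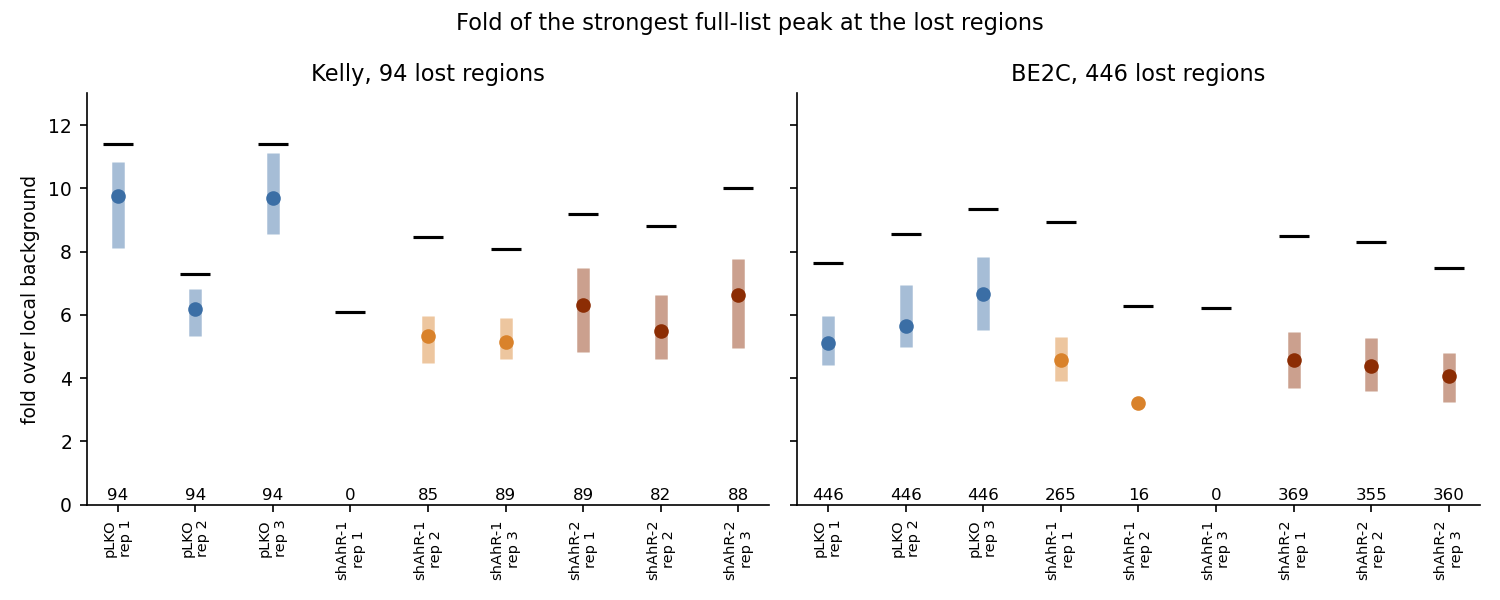
Points show the median fold over local background (vertical axis) of the strongest full-list peak at the lost regions in each library, thick bars the middle quartiles, and numbers the lost regions with a peak. Black dashes give the median of all other regions with 3 of 3 pLKO peaks, which lies above the point in every library that has one.

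Fold depends on the library, so the height within each region was also set against the pLKO height of the same region. The read depth at each summit was solved from fold and p and divided by the library's background. In Kelly the ratio of this scaled height to the pLKO mean had a median of 0.484 and 0.467 in shAhR-1 replicates 2 and 3, where other regions had 0.633 and 0.607. In the 3 Kelly shAhR-2 libraries it was 0.681, 0.470 and 0.675 at the lost regions and 1.08, 0.882 and 1.15 elsewhere. In BE2C shAhR-1 replicate 1 it was 0.680 against 1.10, and in BE2C shAhR-2 it was between 0.540 and 0.639 against 0.893 to 1.11. The lost regions therefore stood lower relative to pLKO than other regions in each of these libraries, which the rule builds in. Even so, the scaled height was below the pLKO mean at 82 of 89 members in Kelly shAhR-2 replicate 1 and at 76 of 88 in replicate 3, so some members were as high with that hairpin as without.

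Lost regions had narrow peaks. Over the 3 pLKO peaks of a region the mean width had a median of 609 bp at the Kelly members, against 840 bp at other regions with 3 of 3 pLKO peaks, and of 443 bp against 737 bp in BE2C. The members were also weaker in pLKO, and no comparison was made with regions of like strength. The merged regions had median widths of 785.5 bp in Kelly and 619.5 bp in BE2C, against 1184 bp in both lines, a gap that the rule sets in part, since a lost region joins peaks of 3 lists and the others those of up to 9. The summits of the 3 pLKO peaks lay within 100 bp of each other in 72.3% of Kelly and 66.8% of BE2C members, close to the 70.8% and 69.4% of other regions. A region open in all 9 libraries of the line lay within 10 kb of 6 Kelly members (6.38%, against 5.17% of other regions) and of 96 BE2C members (21.5%, against 15.7%). The rule did not use these distances, but the groups are unlike. The other regions include those open in all 9 libraries, which were measured to the next such region, and they were stronger in pLKO.

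Members were spread over the chromosomes with a few departures. In Kelly, chromosome 16 held 9 of the 94 lost regions (9.57%) but 3.17% of all merged regions. Chromosome 6 held 0 of 94, which allows a share of up to 3.19%, and it carried 5.75% of all regions. In BE2C, chromosome 11 held 36 of 446 (8.07%, against 5.35% of all regions) and chromosome 16 held 22 (4.93%, against 3.41%). All 9 Kelly regions on chromosome 16 had a full-list peak in 5 hairpin libraries, as did 73 of all 94 members. At chr16:83932177-83933215, for example, folds were 11.7, 6.24 and 11.6 in pLKO, 5.96 and 5.71 in shAhR-1 and 7.47, 7.59 and 8.82 in shAhR-2, so pLKO replicate 2 lay below the shAhR-2 libraries.

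Neighbouring members were counted without a comparison group, and such counts depend on the size of the list. Another lost region of the same line lay within 100 kb of 6 Kelly members (6.38%) and of 52 BE2C members (11.7%). On chromosome 2 of BE2C, 3 lost regions followed each other at chr2:219732509-219733100, chr2:219743566-219744068 and chr2:219751038-219751631. Their pLKO folds were 6.48, 7.76 and 8.06 at the first, 3.59, 4.63 and 3.47 at the middle one and 5.11, 5.47 and 6.21 at the last. The highest hairpin fold at the first was 4.78, in shAhR-2 replicate 2, and the highest at the last was 3.65, in shAhR-2 replicate 3. All pLKO folds at these 2 regions were above all hairpin folds, as in many members by the choice of regions. The hairpin folds of the middle region are not given here, so nothing is said of its separation.

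A few members sit in DNA of high local background. At chr2:15959389-15960021 and chr2:16383096-16383466 in Kelly the local background was 131 and 260 times the genome-wide level. Both lie on the short arm of chromosome 2, the arm that carries MYCN. Their pLKO folds were 2.09, 1.53 and 1.93 at the former and 1.69, 1.51 and 1.94 at the latter, the lowest of the Kelly list. The median over all Kelly members was 2.37 times the genome-wide level, below the 3.12 of other regions, and in BE2C it was 1.73 against 2.31.

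The strongest members, ordered by their lowest pLKO fold, differed in how much was left with the hairpins. In Kelly, chr3:43218181-43218660 had pLKO folds of 12.2, 8.99 and 10.8, and weak peaks of 3.83 in shAhR-1 replicate 3 and 3.58 in shAhR-2 replicate 1. Next in order, chr2:118027081-118027516 had 12.9, 8.56 and 13.2 in pLKO, 6.62 and 6.59 in shAhR-1 and 5.88, 4.39 and 7.59 in shAhR-2. In BE2C that region was open throughout, with folds between 7.47 and 13.8 in all 9 libraries. In BE2C the strongest member was chr1:155953149-155953931, at 9.58, 9.47 and 10.1 in pLKO and 5.47 in shAhR-1 replicate 1, with no peak in the other 5 hairpin libraries. The same region had a Kelly peak of 6.13 and 5.66 in pLKO replicates 1 and 3 and none in any Kelly hairpin library. At chr1:87246391-87247028, BE2C pLKO folds were 9.04, 11.2 and 11.9, and lower peaks were called at 3.78 in shAhR-1 replicate 1 and 5.69, 7.70 and 5.16 in shAhR-2.

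Only 2 regions were lost in both lines, 2.13% of the Kelly list and 0.448% of the BE2C list. Their membership in each line was fixed by the rule, so their values have no test. The first was chr1:48269714-48270261 in Kelly, and chr1:48269709-48270189 in BE2C. Its reads at the summit were 48, 24 and 45 in Kelly pLKO, 17 and 16 in shAhR-1 replicates 2 and 3, and 17, 14 and 14 in shAhR-2. Divided by background these were 27.1, 12.5 and 35.8 in pLKO, 13.4 and 11.2 in shAhR-1, and between 4.87 and 5.83 in shAhR-2. The unscaled reads did not overlap in Kelly, but the scaled ones did, since pLKO replicate 2 lay below shAhR-1 replicate 2, as did its fold (6.19 against 6.42). In BE2C the reads were 18, 33 and 39 in pLKO, 14 in shAhR-1 replicate 1, and 24, 33 and 34 in shAhR-2, so the unscaled counts overlapped. Divided by background they did not, with pLKO between 11.9 and 22.1 and the hairpin libraries with a peak between 7.07 and 9.31.

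The second was chr1:160332010-160333100 in Kelly, and chr1:160331983-160333006 in BE2C. Kelly pLKO libraries had 78, 33 and 63 reads at its summit, the 2 shAhR-1 libraries with a peak had 13 each, and the shAhR-2 libraries had 23, 29 and 28. Kelly folds were 6.69, 4.82 and 7.99 in pLKO and at most 4.74 with a hairpin. In BE2C the pLKO reads were 29, 23 and 33 and no hairpin library had a peak in its full list. A further lost Kelly region, chr1:160336525-160336941, began 3425 bp after it, with pLKO folds of 5.90, 5.04 and 6.11 and a single hairpin peak of 3.15 in shAhR-2 replicate 1. In BE2C that neighbour had folds of 5.02, 7.09 and 6.47 in pLKO, 6.53 in shAhR-1 replicate 1, and 3.21 and 2.87 in shAhR-2 replicates 1 and 3, so the pLKO and hairpin folds overlapped there.

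**Figure D3:**
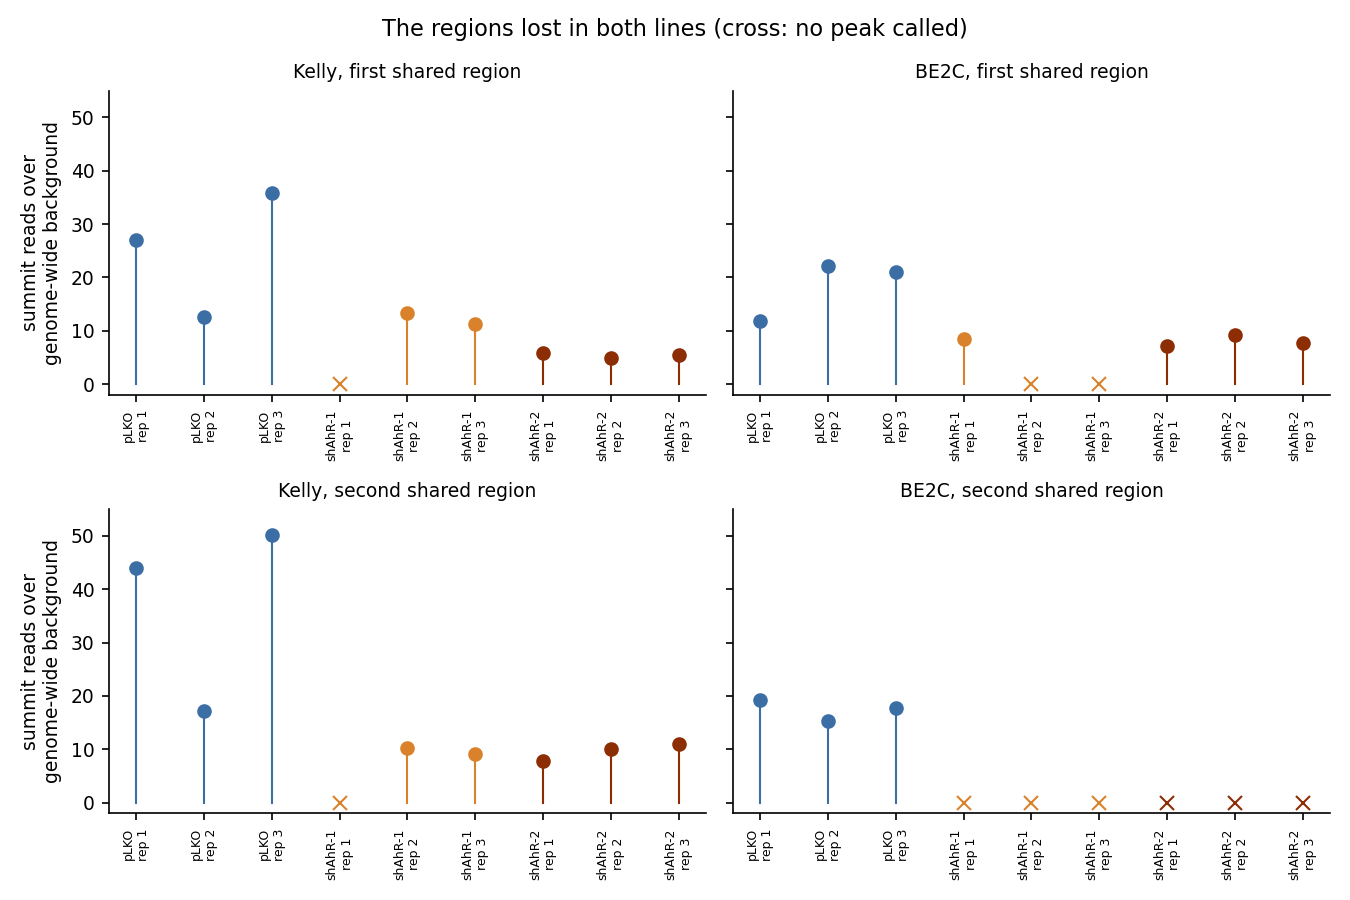
Each panel gives, for a region lost in both lines, the reads at the summit divided by the genome-wide background of the library (vertical axis) in the 9 libraries of a line (horizontal axis), with crosses at 0 where no peak was called. In the Kelly panels pLKO replicate 2 is the lowest pLKO library, and in the lower right panel no BE2C hairpin library has a peak.

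The libraries of the other line did not take part in choosing a line's members, so they show whether the pattern recurs. In the BE2C cut lists, pLKO libraries held between 81.9% and 83.0% of the 94 Kelly regions, and hairpin libraries between 68.1% and 77.7%. The mean was 82.3% ± 0.614 (SD, n = 3) in pLKO, 72.0% ± 5.03 (SD, n = 3) in shAhR-1 and 70.2% ± 1.06 (SD, n = 3) in shAhR-2, and the pLKO and hairpin libraries did not overlap. Among the other 6938 regions with 3 of 3 Kelly pLKO peaks the ranges did overlap, 97.2% to 97.5% in pLKO and 96.7% to 98.0% with hairpins. The lowest hairpin share came from shAhR-1 replicate 3, whose list was shorter than the others, and without it the hairpin libraries held 69.1% to 77.7%. In the full BE2C lists the pLKO libraries held 83.0% to 89.4% of the Kelly regions, the shAhR-1 libraries 68.1% to 85.1% and the shAhR-2 libraries, the deepest, 89.4% to 91.5%. The separation was thus seen in the cut lists, and in the full lists the shAhR-2 mean of 90.4% was above the pLKO mean of 85.8%.

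Few BE2C members reached the short Kelly lists. In the cut lists, Kelly pLKO libraries held between 1.35% and 2.24% of the 446 regions and hairpin libraries between 0.224% and 1.12%. With lists of 19445 peaks, an alternative chosen after the data were seen that leaves out Kelly shAhR-1 replicate 1, pLKO replicates 1 to 3 held 69, 51 and 64 of the regions. The 2 shAhR-1 libraries held 33 and 30, and the shAhR-2 libraries 31, 18 and 27. All pLKO libraries were above all hairpin libraries, at 11.4% to 15.5% against 4.04% to 7.40%. The other 19734 regions gave overlapping ranges of 66.5% to 73.2% and 67.9% to 70.2%. So did those whose weakest pLKO rank lay past 75% of the cut list, at 35.0% to 43.2% and 38.9% to 42.3%. In the full Kelly lists the hairpins parted: pLKO libraries held 11.4% to 35.0% of the 446 regions, shAhR-1 libraries 1.12% to 11.9% and shAhR-2 libraries 31.2% to 40.1%.

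**Figure D4:**
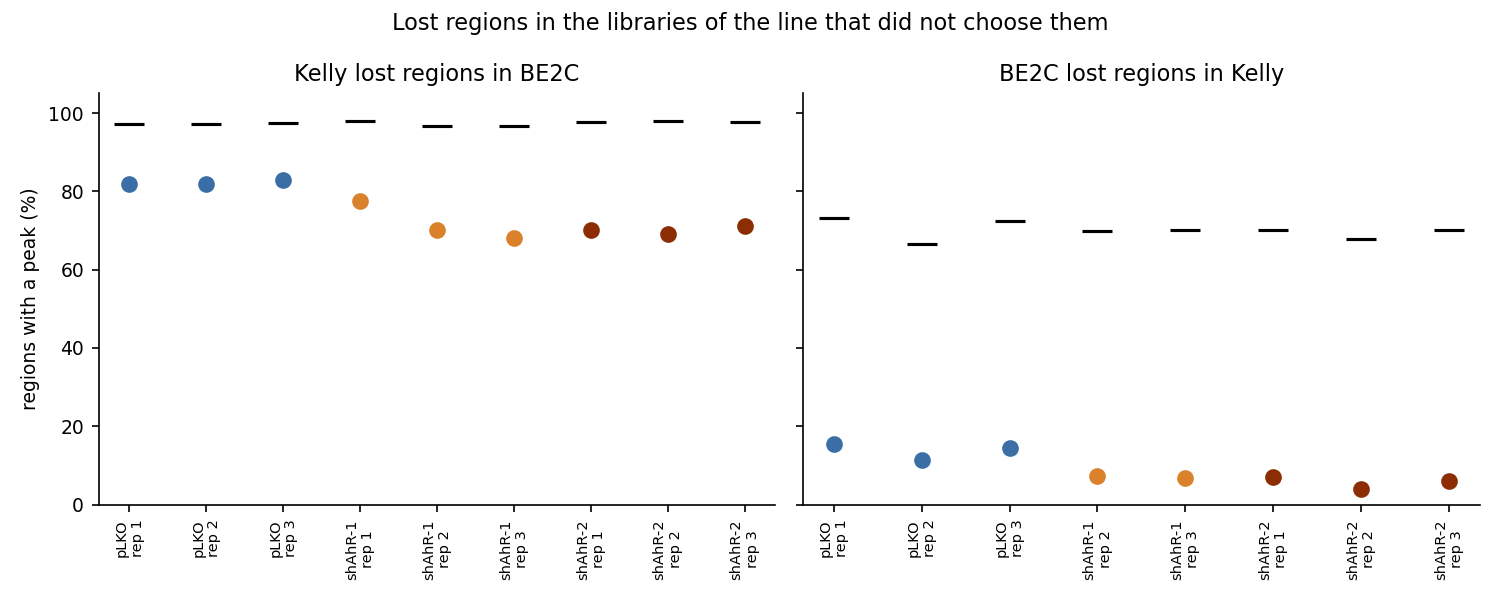
Points give the percentage of lost regions with a peak (vertical axis) in each library of the line that did not choose them, with Kelly regions in cut BE2C lists on the left and BE2C regions in Kelly lists of 19445 peaks, without Kelly shAhR-1 replicate 1, on the right. Black dashes give the other regions with 3 of 3 pLKO peaks, and the blue pLKO points lie above all hairpin points in both panels.

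Region by region, the recurrence rested on a small number of sites. Of the 94 Kelly regions, 51 had a peak in all 9 cut lists of BE2C and 11 in none. A peak in 3 of 3 BE2C pLKO libraries and in at most 1 of 6 hairpin libraries was found at 6 Kelly members (6.38%), the 2 shared regions included, and at 3 of the 6938 other regions (0.0432%). These 6 included 4 of the 6 members with the fewest full-list hairpin peaks in Kelly, a subset picked after its values were seen. They were chr1:25429594-25430276, chr1:160336525-160336941, chr3:43218181-43218660 and chr3:126729927-126730712. At chr3:126729927-126730712, folds were 8.32, 4.64 and 9.20 in Kelly pLKO, 4.31 and 4.85 in 2 Kelly shAhR-1 libraries, and no peak was called in Kelly shAhR-2. In BE2C the same site had 5.18, 5.59 and 4.48 in pLKO, 3.00 and 3.11 in shAhR-1 replicates 1 and 3, and 3.09, 3.03 and 2.23 in shAhR-2, so every pLKO fold was above every hairpin fold there. The other 3 did not separate by fold in BE2C. At chr1:25429594-25430276 the BE2C folds were 5.06, 5.75 and 6.59 in pLKO, 4.92 in shAhR-1 replicate 1, and 7.07, 5.70 and 6.86 in shAhR-2. At chr3:43218181-43218660 they were 7.17, 6.41 and 7.35 in pLKO and 5.92, 7.92 and 4.79 in shAhR-2, with no shAhR-1 peak. Of the remaining 2, chr2:16383096-16383466, in high local background, had a peak in all 9 cut BE2C lists, and chr3:187916563-187917236 had none in any full BE2C list.

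A single region can also be tested in the other line, with a two-sided exact permutation test of fold over the 84 arrangements of 3 pLKO and 6 hairpin libraries, whose smallest p is 0.0119. Regions with no peak in a library were given a fold of 1. Of 90 Kelly members with any BE2C peak, 23 (25.6%) had higher folds in pLKO at an unadjusted p under 0.05, near the 27.8% of all regions tested and below the 49.6% of the other regions with 3 of 3 Kelly pLKO peaks, so this count does not set the members apart as higher in BE2C pLKO, and 0 had higher folds with hairpins against 0.902%. With folds divided by each library's median over regions found in all 18 cut lists, an alternative added after the data were seen, it was 5 of 90 (5.56%) against 1.99% of all regions, and 7 (7.78%) were higher with hairpins against 14.5%, so on this scale more members were higher with hairpins than in pLKO. The other regions with 3 of 3 pLKO peaks gave 3.90% and 9.03%. The fold of 1 given for a missing peak was divided as well. The library medians were 11.6 to 12.4 in BE2C pLKO and 8.07 to 11.2 with hairpins. A missing peak therefore scored higher in the BE2C hairpin libraries, and its part in the scaled counts was not tested. Of 257 BE2C members with any Kelly peak, 15 (5.84%) had higher folds in Kelly pLKO against 2.53% of all regions and 3.62% of the other regions with 3 of 3 BE2C pLKO peaks, and 0 had higher folds with hairpins against 0.672%. On the scaled fold these were 20 (7.78% against 2.23%) and 0 (against 2.56%). After Benjamini-Hochberg adjustment over all regions of the exact permutation test, 0 passed in either line, and the lowest adjusted p was 0.0862 for Kelly members and 0.878 for BE2C members. With a smallest p of 0.0119, an adjusted p under 0.05 would need a large share of all tested regions to reach that smallest value. The count of 0 therefore cannot decide on any single region.

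The 36 BE2C regions with no hairpin peak of any strength were the most fully lost. For shAhR-1 replicate 3 the rule sets this absence, and for replicate 2 nearly so, so it rests on the other hairpin libraries. This subset was also picked after its values were seen. Their reads at the summit had medians of 19.5, 22 and 32.5 in BE2C pLKO replicates 1 to 3, so the peaks were modest, and the lowest was 12. The strongest were chr2:100630362-100630791, with pLKO folds of 7.57, 7.08 and 8.83, and chr7:21003378-21004412, with 6.89, 8.01 and 8.99. They were followed by chr2:217548535-217549526 with 6.83, 7.11 and 8.90 and by chr14:68102905-68103589 with 6.77, 7.02 and 9.62. None of these 4 had a peak in a Kelly hairpin library, and only the first had a Kelly pLKO peak, of 6.49 in replicate 1. In Kelly, 21 of the 36 regions had no peak in any full list, so most could not be compared between the lines.

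For the others the Kelly libraries leaned the same way. Full Kelly lists held 12, 5 and 11 of the 36 regions in pLKO replicates 1 to 3. They held 3, 6 and 2 in shAhR-1 and 5, 3 and 4 in shAhR-2, although the shAhR-2 lists were the longest. At the 339 BE2C members with full-list peaks in 3 or more hairpin libraries the order differed, with 133, 43 and 119 in pLKO, 2, 45 and 45 in shAhR-1 and 162, 130 and 166 in shAhR-2. Kelly pLKO replicate 2, whose list was the shortest of its group, overlapped the hairpin libraries in both subsets.

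**Figure D5:**
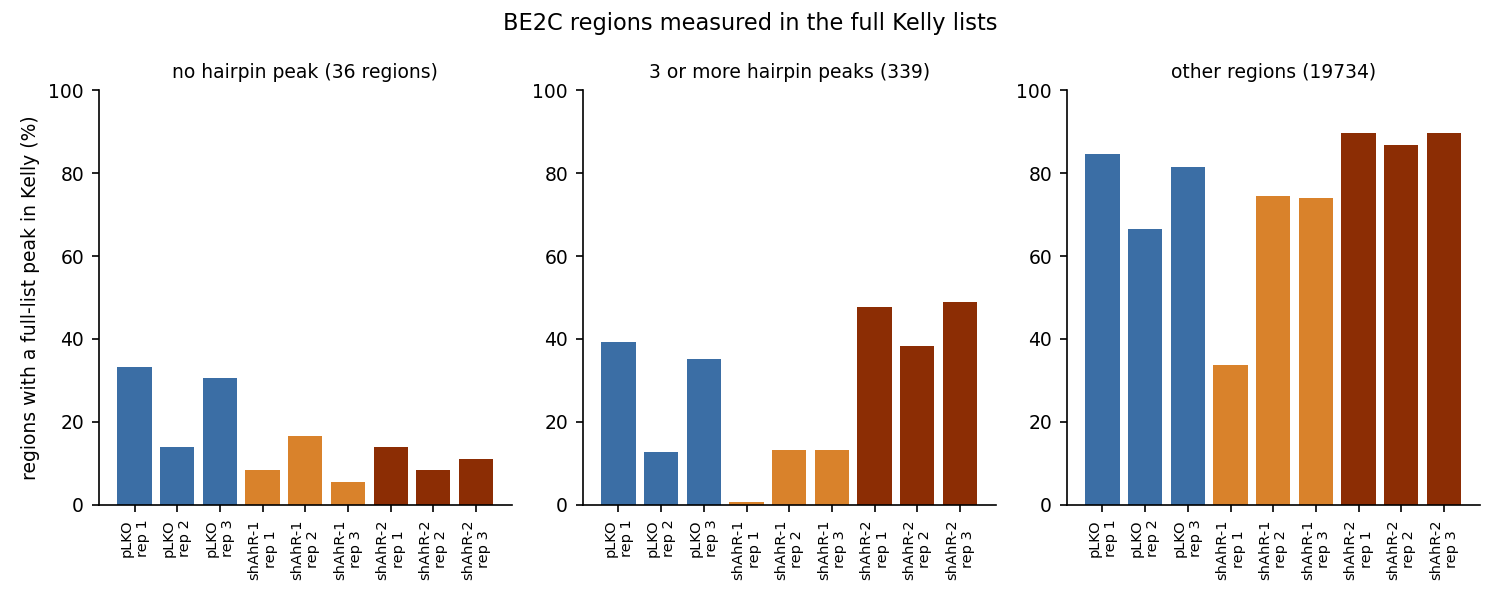
Bars show the percentage of BE2C regions with a peak in the full list of each Kelly library (vertical axis), for the 36 lost regions with no hairpin peak, the 339 with 3 or more hairpin libraries holding a full-list peak, and the 19734 other regions with 3 of 3 BE2C pLKO peaks. The shAhR-2 bars are below the bars of pLKO replicates 1 and 3 in the left panel and above pLKO replicate 3 in the other panels.

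At 6 of the 36 regions (16.7%), at least 2 Kelly pLKO libraries and no Kelly shAhR-2 library had a peak in the full lists. The same was true of 12 of the 410 other BE2C members (2.93%) and of 1.09% of the other 19734 regions, or 1.88% of those past 75% of the list. The reverse, at least 2 shAhR-2 libraries and no pLKO library, was found at 0 of the 36, at 45 of the 410 (11.0%) and at 5.69% of the other regions. With no peak allowed in any Kelly hairpin library, at least 2 Kelly pLKO libraries held 2 of the 36 (5.56%). The same held for 9 of the 410 (2.20%) and for 0.476% of the other regions, or 0.987% of those past 75% of the list. At chr7:1758803-1759146, BE2C folds were 4.02, 5.41 and 4.52 in pLKO, and Kelly folds were 6.48, 6.03 and 6.96 in pLKO and 4.51 and 4.24 in shAhR-1 replicates 1 and 2. On the fold as deposited, every Kelly pLKO library was above every hairpin library at this site. In the cut Kelly lists, only pLKO replicate 2 (rank 6148) and shAhR-1 replicate 1 (rank 7272) held it. The exact permutation test in Kelly gave it an unadjusted p of 0.0119 (adjusted 0.878), and 0.0952 unadjusted on the scaled fold. At chr22:18955111-18955526, BE2C pLKO folds were 7.24, 5.21 and 7.94, and Kelly folds were 6.20, 4.62 and 7.50 in pLKO and 4.87 in shAhR-1 replicate 2. Here the lowest pLKO fold lay under the hairpin peak, although 5 hairpin libraries had none. The other 4 were chr12:57848366-57849255, chr12:122685383-122685698, chr19:2059524-2060191 and chr22:21796185-21796670, of which the first and the third had no peak in any of the 6 Kelly hairpin libraries. At chr12:132166818-132167196 the lines went apart, since all 9 full Kelly lists held a peak, with folds between 8.59 and 16.6, while BE2C had 5.45, 5.25 and 8.37 in pLKO and no hairpin peak.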

How the data were processed

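ATAC-seq was made from 18 libraries. The build hg19 and the tools MACS2 2.1.0, BWA 0.7.17, deepTools 3.1.3, Trimmomatic 0.33 and CASAVA 1.8.2 are listed per the submitters' processing notes. Settings, the treatment of duplicates and any shift for the transposase were not given in the sources used here, and they could move summits and calls. The authors deposited 1 narrowPeak list per library, not pooled. Each peak carried the caller's integer score, the summit's fold over local background as a linear ratio, and its p-value and q-value as −log10, all as deposited by the authors. The fold and p are each peak's own values and served to rank and describe peaks.

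Groups came from the labels. Peaks off the autosomes (2.57% to 3.38% of a list) were left out. Reads at the summit were solved from fold and p, assuming a pseudocount of 1 and a Poisson tail, where the fold reached 1.5. This gave values for 98.9% to 99.8% of a list's peaks, and 97.4% to 100% of these were whole within 0.05. The lowest local background of a library stood for its depth, since read totals were not used here. Where 1 region was tested, the test was an exact permutation test over libraries with Benjamini-Hochberg adjustment over all regions (scipy 1.17.1, numpy 2.4.6). The functions were tested on simulated data. The members, lists and tests were chosen with earlier results of these data known. Named regions were those lost in both lines, the strongest by lowest pLKO fold, BE2C regions with no hairpin peak, those at the edge of the rule, and those with the most lost neighbours or hairpin peaks below the cut; others are said to be picked after their values were seen. Alternatives were another ranking, list length, overlap, absence rule and presence rule, the X chromosome, each hairpin alone, the replicate number as a block, and leaving out each library. Distances to genes, gene lists, marker genes and sequences were not analysed here, as no hg19 annotation or genome was used.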

Additional observations from a re-analysis of the deposited data

Results flagged for a closer look

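Among the 6 hairpin libraries of a line as 1 group, 4 measures were examined for a library far from the rest, and chance alone would flag such a library in a small share of groups. Kelly shAhR-1 replicate 1 had a full-list peak at 0 of the 94 Kelly lost regions, and the other 5 hairpin libraries had one at 82 to 89. Its list was not cut, so the rule itself sets this value. BE2C shAhR-1 replicate 1 held 77.7% of the Kelly lost regions in its cut list, above the 68.1% to 71.3% of the other 5 BE2C hairpin libraries and below the 81.9% to 83.0% of the pLKO libraries.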

How the results depend on the processing

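The membership of the list depends on the cut. From full lists 130 BE2C regions, 225 in the union and 0 in both lines were lost, and 0 of the 94 Kelly and 36 of the 446 BE2C members were among them. Ranked by fold, 0 were lost in both lines, and 27 Kelly and 220 BE2C members were kept. With lists at 75% of the length, 53 were lost in Kelly, 352 in the union and 1 in both. With no hairpin peak allowed in the full lists, 0 were lost in Kelly, 36 in BE2C, 36 in the union and 0 in both. With at least 2 of 3 pLKO libraries, 292, 1161, 1446 and 7 were lost. Without Kelly shAhR-1 replicate 1, at the next list length of 19445, 265 were lost in Kelly, 4 of them members, and 7 in both.

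Leaving out 1 library gave 97 to 192 lost regions in Kelly (192 without pLKO replicate 2), 469 to 700 in BE2C (700 without pLKO replicate 1), 541 to 792 in the union and 2 to 3 in both lines. Fewer libraries then had to agree, so these counts could hardly fall and only the size of the rise is informative. The mean share of members with a full-list peak in a hairpin library, 76.8% in Kelly and 51.0% in BE2C, ranged over 73.2% to 92.1% and 44.7% to 61.2%.

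Between pLKO and hairpin libraries of the other line, the difference in the share held was 11.2 percentage points for Kelly members (10.6 to 12.5 without 1 library, 3.37 with full lists) and 1.08 for BE2C members (0.822 to 1.27 without 1 library, 3.29 with full lists, 7.52 with longer Kelly lists). The full-list values pool hairpins that went opposite ways: with shAhR-2 alone the difference reversed, to -4.61 and -11.2 points, and with shAhR-1 alone it was 11.3 and 17.8. In cut lists each hairpin alone kept the direction. Counts of single regions higher in pLKO moved from 23 to between 11 and 28, or to 5 on the scaled fold, and from 15 to between 5 and 45 (45 without Kelly pLKO replicate 2). Subtracting the regions higher with hairpins, the Kelly members went from 23 to -2 on the scaled fold. In all, 3 values reversed, 39 moved by over 1.5 times or beyond their spread and 110 did not. These totals include the counts of lost regions without 1 library, whose direction the rule sets. The cause was not tested.

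With the replicate number as a block (27 arrangements, an alternative added after the data were seen), the exact permutation test gave 14 Kelly members (15.6%, against 19.1% of all regions) and 9 BE2C members (3.50%, against 1.49%). The numbers did not pair the libraries: deviations of same-numbered libraries correlated between -0.255 and 0.0791 in BE2C and between -0.224 and 0.134 in Kelly. Membership itself comes from presence and absence, with no fit to carry a block. The share near transcription starts was not run.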

Other observations

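With the X chromosome ranked among the autosomes, 79 of the 94 Kelly and 372 of the 446 BE2C members stayed lost, and 4 Kelly and 6 BE2C regions on X met the rule. With that ranking chr3:43218181-43218660 was lost in both lines.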
